A study of Mus musculus with 6 samples.

Results

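The comparison set 2 libraries of 32D cells carrying guide sg5 against 2 libraries with an empty vector (EV), from a series of 6 libraries that also holds 2 with guide sg2. RNA abundance was measured by sequencing. 32D is a mouse myeloid progenitor line that depends on interleukin 3 and was grown with 1 ng/mL of it. Every group, EV included, expressed dCas9-KRAB, in which a cutting-dead Cas9 is joined to a repressor domain. The cells received lentivirus with EV, sg2 or sg5, and puromycin selection lasted a week. The title of the series speaks of a CEBPE enhancer. Neither the guide sequences and their targets nor whether the transduced cells were pools or clones could be read from the labels. Of the 47606 genes in each file, 12957 had a mean of at least 1 FPKM (fragment counts corrected for transcript length and depth) over the 4 libraries and were tested. Of these, 10575 were protein-coding.

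The label of the second sg5 library is in conflict. Its title says sg5, whereas its source name and genotype say sg2. Here the title was followed, and the difference of the first sg5 library alone is given beside that of the pair for most called genes and described lists. Library numbers were compared within themselves: number 1 is the first sg5 library minus the first EV library, and number 2 is the second minus the second. All differences are in log2(FPKM + 1), a scale on which the change of a low gene is understated.

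C/EBP epsilon, encoded by Cebpe, is a transcription factor of the later steps of granulocyte development. It is known for activating genes of the secondary (specific) granules, which are made after the primary (azurophilic) granules. C/EBP factors bind as dimers to short palindrome-like DNA sites. A KRAB domain recruits silencing chromatin at the place where the guide directs it.

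Cebpe (ENSMUSG00000052435, GRCm38 chromosome 14, 54710360 to 54712174, minus strand) measured 42.0 FPKM and 100.4 FPKM in EV replicates 1 and 2, and 19.4 FPKM and 22.7 FPKM in sg5 replicates 1 and 2. Both sg5 libraries lay below both EV libraries, and the EV libraries stood further apart than the sg5 libraries. The difference was -1.08 in number 1 alone, -2.10 in number 2 and -1.59 for the pair. In limma fitted to the protein-coding genes, with the replicate number as a block, the standard error was 0.22 and the adjusted p was 0.0353. In the same fit over all 12957 genes the standard error was 0.27 and the adjusted p was 0.348. The call in the protein-coding fit was lost without the first sg5 library (-1.88, adjusted p = 0.0664) and without the second (-1.30, adjusted p = 0.117), and also without the block (limma adjusted p = 1.00). An exact two-sided permutation test has only 6 splits of the 2 EV and 2 sg5 libraries and ignores the replicate numbers. It gives its smallest possible p, 0.333, whenever the groups do not overlap, and so could not have passed. Of 26 measured genes within 500 kb of Cebpe, none passed limma's threshold in the fit over protein-coding genes, which held 24 of them, or in the fit over all genes. Among these 26, 5 were higher and 9 lower in both numbers, shares near those of all protein-coding genes (26.5% higher and 31% lower).

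Depth, estimated from the steps between low values, was between 31400000 and 45600000 fragments in the 4 libraries. On 1 kb of effective length, which is transcript length less fragment length, 3 fragments correspond to between 0.0658 and 0.0955 FPKM. The cells expressed the myeloid genes Ptprc, Spi1, Prtn3, Csf2rb and Myb. Kit was listed at 0 in all 4 libraries, and Cd34 lay between 0.194 FPKM and 0.329 FPKM. Of 23 lymphoid markers 3 passed the filter and 7 were listed at 0 in all 4 libraries, and of 20 monocyte and macrophage markers 5 passed and 3 were at 0. RNAs shorter than 200 nt took 6.77% and 16.4% of the FPKM in EV, and 9.67% and 15.4% with sg5. The 2 EV libraries differed by 2-fold or more in 875 protein-coding genes, the 2 sg5 libraries in 691. The first sg5 and first EV library differed so in 85 genes, and the second pair in 109. The label conflict touches the second pair. The second sg5 library differed by 2-fold or more from the second sg2 library in 52 genes and shared no identical value with it. The first sg5 library differed so from the first sg2 library in 45. Between sg2 and EV the counts were 48 for the first libraries and 112 for the second. Of 15 genes of at least 5 FPKM that were 2-fold or more higher in the first sg5 library than in the first sg2 library, 12 were also higher in number 2, none by 2-fold. Of 9 that were lower, 7 were lower in number 2, and 1 of them by 2-fold. The share of all genes of this level on each side in number 2 was not counted. In number 2 the median of sg5 minus sg2 was 0.40 for the 15 genes and -0.63 for the 9. Most of these genes thus kept their direction in number 2, but which label holds was not tested.

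In the fit over protein-coding genes, 33 genes passed an adjusted p of 0.05 in limma: 11 were higher with sg5 (0.104% of those tested) and 22 lower (0.208%). In the fit over all genes only 2 of them passed, Nmral1 upward (adjusted p = 0.0252) and Ngp downward (adjusted p = 0.0167), 0.00772% of the genes tested in each direction. Without the block no gene passed in either fit. At an unadjusted p under 0.05, limma had 1127 protein-coding genes with the block (10.7%) and 95 without it. Over all genes it had 1066 with the block (8.23%) and 197 without it (1.52%). Below, "rose" and "fell" refer to the fit over protein-coding genes with the block. With 1 of the 4 libraries left out at a time, 1 group holds a lone library whose spread is assumed to be that of the other groups. Of the 33 genes, Ngp, Ltf, Olfm4, S100a8, S100a9, Alas1, Gm9797, Nmral1 and Ppp4r4 passed in all of these fits. Cd52, Degs2, Myc and Plch1 passed in none of them. Without the first EV library, 65 genes were called higher and 40 lower, so the balance of directions turned. A difference of 2-fold or more in both numbers was found for 9 higher (0.0851%) and 22 lower (0.208%) protein-coding genes. The sg5 and EV libraries did not overlap for 776 higher (7.34%) and 761 lower (7.2%) protein-coding genes.

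**Figure D1:**
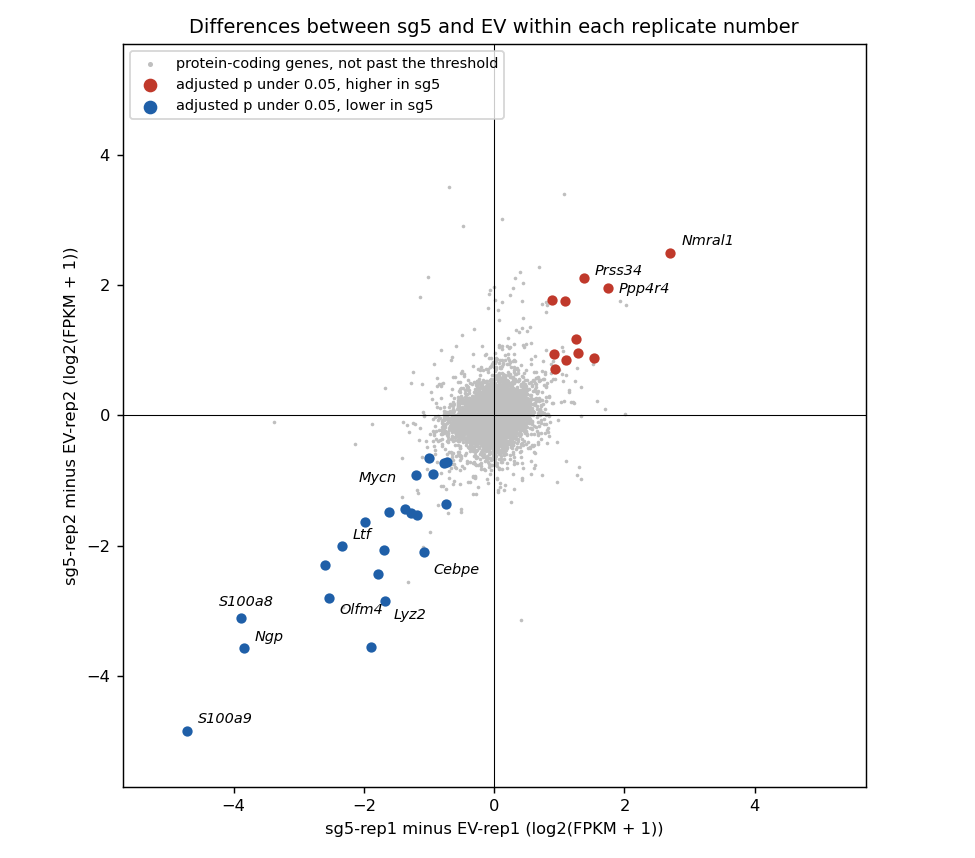
Each point is 1 protein-coding gene, with its log2(FPKM + 1) difference in number 1 on the x axis and in number 2 on the y axis. Red and blue points passed limma's adjusted p of 0.05; the 22 blue ones lie low in both numbers, with S100a9 at -4.72 and -4.84, and the 11 red ones lie high in both, with Nmral1 at 2.71 and 2.50.

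Genes of the specific granules were among those that fell with sg5. Of 32 listed genes of specific and gelatinase granules, 18 were measured. Of these, 5 fell, none rose and 13 did not pass, beside 0.208% fallen and 0.104% risen over all protein-coding genes. In both numbers 11 were lower and 3 higher, beside 31% lower and 26.5% higher over all protein-coding genes. The median difference of the 18 was -0.42 (-0.13 in number 1 alone, -0.62 in number 2), and that of all protein-coding genes was -0.01. Ngp, which encodes neutrophilic granule protein, measured 67.7 FPKM and 331 FPKM in EV and 3.79 FPKM and 27.0 FPKM with sg5. The sg5 libraries lay below both EV libraries, by -3.84 in number 1 and -3.57 in number 2 (pair -3.71, SE 0.11, adjusted p = 1.21e-05). Ltf encodes the iron-binding protein lactoferrin. It measured 7.67 FPKM and 13.9 FPKM in EV and 0.718 FPKM and 2.70 FPKM with sg5, a difference of -2.33 in number 1 and -2.01 in number 2 (pair -2.17, SE 0.15, adjusted p = 0.00101).

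Olfm4, which encodes olfactomedin 4 of a subset of neutrophils, measured 6.80 FPKM and 9.40 FPKM in EV and 0.346 FPKM and 0.487 FPKM with sg5 (-2.53 in number 1, pair -2.67, SE 0.16, adjusted p = 0.000662). Lyz2, the lysozyme of myeloid cells, was the most abundant of the 5, at 173 FPKM and 578 FPKM in EV and 53.2 FPKM and 79.6 FPKM with sg5. Its groups did not overlap, and its difference was -1.68 in number 1 and -2.84 in number 2 (pair -2.26, SE 0.26, adjusted p = 0.0153). Chil1, a chitinase-like protein, measured 5.35 FPKM and 16.8 FPKM in EV and 1.47 FPKM and 5.57 FPKM with sg5. Its groups overlapped, because the second sg5 library stood above the first EV library, while the difference was -1.36 in number 1 and -1.44 in number 2 (adjusted p = 0.0122). Several abundant members did not pass. Lcn2, which encodes the siderophore-binding lipocalin 2, measured 190.5 FPKM and 202 FPKM in EV and 177 FPKM and 103 FPKM with sg5. Camp, Mmp8 and Mmp9 lay under the filter. Mmp9, a gelatinase, measured 1.81 FPKM and 1.88 FPKM in EV and 0.137 FPKM and 0.0425 FPKM with sg5, and it was not tested.

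The calprotectin and stefin A list had the lowest median of the 35 lists. The lists were chosen with earlier results of these data known, so this rank and the counts below are no test. Of 15 listed genes, 11 were measured. Of these, 4 fell, none rose and 7 did not pass, and 9 were lower in both numbers with none higher. Over all protein-coding genes 0.208% fell, and 31% were lower and 26.5% higher in both numbers. The median difference was -1.33, with -1.41 in number 1 alone and -1.25 in number 2. With a mean of at least 5 FPKM required, the median of the list was -0.18. The specific and gelatinase granule list then lay lower, at -0.34. S100a8 and S100a9 encode the subunits of calprotectin, the main calcium-binding protein of the neutrophil cytosol. S100a9 measured 129.9 FPKM and 98.4 FPKM in EV and 3.98 FPKM and 2.47 FPKM with sg5 (-4.72 in number 1, pair -4.78, SE 0.31, adjusted p = 0.000782). S100a8 measured 50.4 FPKM and 32.2 FPKM in EV and 2.47 FPKM and 2.83 FPKM with sg5 (-3.89 in number 1, pair -3.50, SE 0.21, adjusted p = 0.000682). For both genes the EV libraries lay far above the sg5 libraries. Stfa1 and Stfa2l1, stefin A inhibitors of cysteine proteases, fell from 2.96 FPKM and 3.38 FPKM to 0 and 0.413 FPKM, and from 2.88 FPKM and 7.23 FPKM to 0.134 FPKM and 0.525 FPKM. The stefin A genes are near-identical copies, so reads may be split among them. Other S100 genes on the list, S100a6, S100a10, S100a11 and S100a4, did not pass. S100a10 measured 209.9 FPKM and 348 FPKM in EV and 248 FPKM and 332 FPKM with sg5.

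The stretches before the starts of Ngp, Ltf, S100a8 and S100a9 are shown as examples from the genes that fell together with Cebpe, which encodes a C/EBP factor. They come from RefSeq (GRCm38.p6), run 5′ to 3′ on the gene's strand and stop before the annotated gene. Capitals mark matches to TTNNGNAA on either strand (TTNCNNAA on the other), a core of the C/EBP site. The positions are chr9:110419558-110419746 (plus) for Ngp, chr9:111019042-111019270 (plus) for Ltf, chr3:90668821-90668977 (plus) for S100a8 and chr3:90695722-90695971 (minus) for S100a9.
Ngp: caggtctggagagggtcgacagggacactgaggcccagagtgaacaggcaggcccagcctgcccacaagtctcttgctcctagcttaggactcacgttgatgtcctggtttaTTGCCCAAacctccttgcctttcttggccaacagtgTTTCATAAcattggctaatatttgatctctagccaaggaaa
Ltf: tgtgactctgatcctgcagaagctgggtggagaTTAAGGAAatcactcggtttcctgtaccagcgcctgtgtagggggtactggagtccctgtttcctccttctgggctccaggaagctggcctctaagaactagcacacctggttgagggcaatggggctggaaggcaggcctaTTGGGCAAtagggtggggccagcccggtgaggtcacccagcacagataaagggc
S100a8: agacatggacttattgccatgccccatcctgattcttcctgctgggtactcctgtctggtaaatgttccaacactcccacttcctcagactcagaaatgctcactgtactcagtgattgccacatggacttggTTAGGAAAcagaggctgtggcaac
S100a9: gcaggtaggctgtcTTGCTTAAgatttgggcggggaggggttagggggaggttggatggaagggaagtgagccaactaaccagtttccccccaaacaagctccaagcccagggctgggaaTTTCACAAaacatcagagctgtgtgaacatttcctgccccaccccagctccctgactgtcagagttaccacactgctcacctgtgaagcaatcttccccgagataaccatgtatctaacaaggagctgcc
Within 250 bases before the start, 10 of the 16 fallen genes with a promoter in the table held the motif (62.5%), as did 1 of the 6 risen genes (16.7%), taking the first entry of each gene. Of all 27025 genes 36.9% held it. With any entry of a gene counted, the shares were 62.5% of the fallen genes, 33.3% of the risen genes (2 of 6) and 40.3% of all. The counted windows were not cut at the annotated gene, and some entries, such as that of Plek, start inside it. Among the 10 fallen genes counted, the matches of Olfm4 and Stfa1 lay inside the annotated gene, and that of Lyz2 reached into it. All the printed stretches hold a match, so they do not represent the fallen genes. Alas1, Pecr, Plch1, Tspan13, Acy1 and Gm3625 also fell and held no match within 250 bases. A match describes letters and does not show binding.

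Other genes that fell belong to no granule list. Alas1, the first enzyme of heme synthesis, measured 117 FPKM and 159.9 FPKM in EV and 50.9 FPKM and 54.8 FPKM with sg5 (-1.18 in number 1, pair -1.35, SE 0.11, adjusted p = 0.00222). It was the only 1 of 15 measured genes of heme synthesis and breakdown to pass, beside 0.312% of all protein-coding genes. Pecr, a peroxisomal enoyl-CoA reductase, fell from 11.9 FPKM and 26.4 FPKM to 4.34 FPKM and 8.68 FPKM (-1.27 in number 1, pair -1.39). Plch1, a phospholipase C, fell from 2.85 FPKM and 2.23 FPKM to 0.263 FPKM and 0.148 FPKM. Exons of Alas1, Pecr, Cd52, Degs2, Plek and Gm3625 overlap a gene on the opposite strand, and the sources used here do not say that strand was used in counting. Reads from the shared stretches may therefore not be told apart, and the length of these stretches was not measured. The opposite gene had a mean of 21.6 FPKM for Gm3625 (Itsn2), 5.10 FPKM for Cd52 (Aim1l), 2.66 FPKM for Degs2 (Evl) and 2.37 FPKM for Pecr (D230017M19Rik). It had only 0.47 FPKM for Alas1 (4930500F10Rik) and 0.0028 FPKM for Plek (Cnrip1).

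Both measured Myc family genes fell, and the rest of their network did not pass. Mycn, a transcription factor of proliferating progenitors, measured 9.66 FPKM and 10.3 FPKM in EV and 3.66 FPKM and 5.0 FPKM with sg5. The groups did not overlap, and the difference was -1.19 in number 1 and -0.91 in number 2 (pair -1.05, SE 0.12, adjusted p = 0.0153). Myc measured 34.5 FPKM and 21.1 FPKM in EV and 19.9 FPKM and 12.3 FPKM with sg5 (-0.76 in number 1, pair -0.75, SE 0.09, adjusted p = 0.0254). Of 12 measured genes of the Myc, Max and Mxd network, these 2 fell and 10 did not pass. The shares over all protein-coding genes were 0.208% fallen and 0.104% risen. Acy1, an aminoacylase, Tspan13, a tetraspanin, Podnl1, a matrix protein, and Cd52, a small glycoprotein of leukocytes, also fell, by between -0.72 and -1.04 for the pair. In number 1 alone their differences ran from -0.72 for Cd52 to -1.01 for Tspan13. Gm10985, Gm9797 and Gm3625, genes without an assigned function, fell as well. The longest annotated transcripts of Gm10985 and Gm3625 have 81 nt and 102 nt, under the 200 nt assumed for fragments. Gm9797 was listed at 0 in both sg5 libraries and both sg2 libraries, and measured 5.07 FPKM and 3.94 FPKM in EV.

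**Figure D2:**
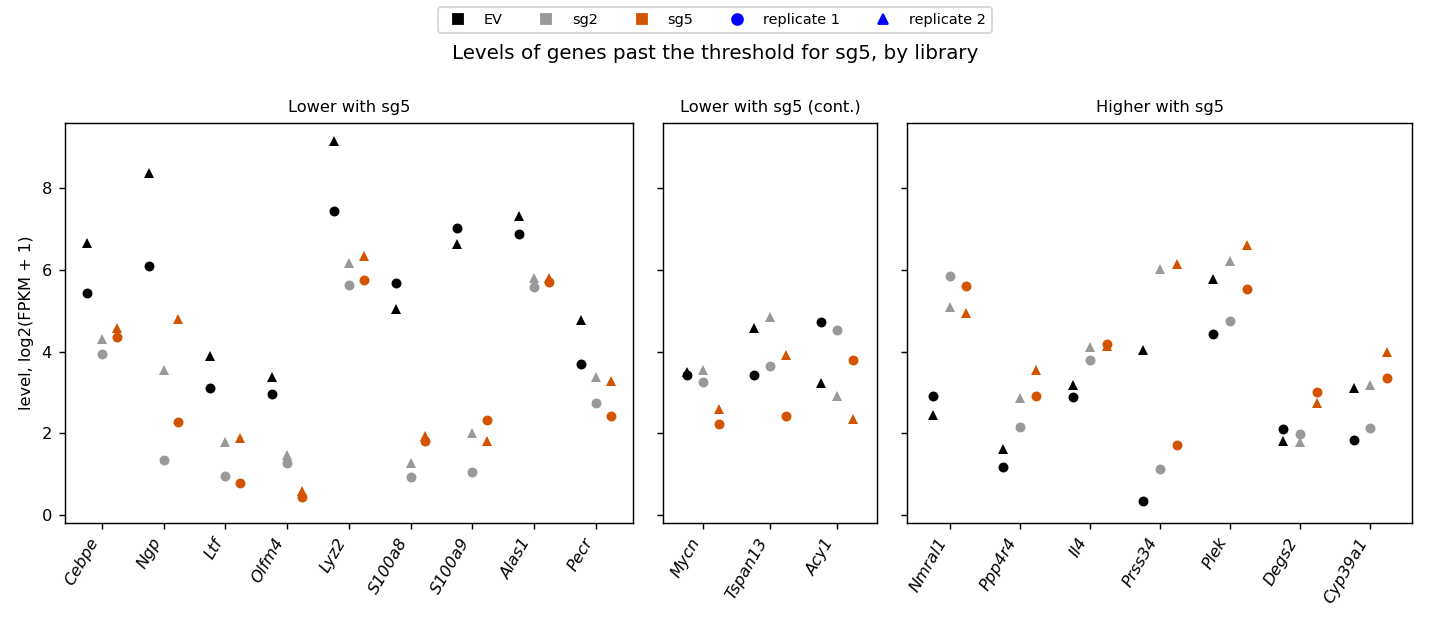
The y axis gives the level in log2(FPKM + 1) of selected genes past the threshold, circles for replicate 1 and triangles for replicate 2, black for EV, grey for sg2 and orange for sg5. Cebpe, Ngp, Ltf, Olfm4, Lyz2, S100a8, S100a9 and Alas1 lie lower with sg5 than in both EV libraries, whereas Acy1 and Plek differ more between the numbers than between the groups.

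Nmral1, a protein that binds NADPH, rose most. It measured 6.54 FPKM and 4.43 FPKM in EV and 48.1 FPKM and 29.7 FPKM with sg5, and both sg5 libraries lay far above both EV libraries. The difference was 2.71 in number 1 alone, 2.50 in number 2 and 2.60 for the pair (SE 0.10, adjusted p = 5.72e-05). Ppp4r4, a regulatory subunit of protein phosphatase 4, rose from 1.23 FPKM and 2.03 FPKM to 6.45 FPKM and 10.7 FPKM (1.74 in number 1, pair 1.85, SE 0.13, adjusted p = 0.00145). Plek, the platelet and leukocyte protein pleckstrin, measured 20.4 FPKM and 53.6 FPKM in EV and 45.0 FPKM and 97.5 FPKM with sg5 (1.10 in number 1, pair 0.97). Degs2, an enzyme of sphingolipid synthesis, Cyp39a1, an oxysterol hydroxylase, Fam71f2, Gm21836 and Gm21961 rose by between 0.93 and 1.42 for the pair. In number 1 alone their differences ran from 0.89 for Gm21961 to 1.54 for Cyp39a1. The copies behind the last 2 were not examined, and their reads may be shared with other genes. The longest annotated transcript of Gm21836 has 63 nt, under the 200 nt assumed for fragments.

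The list of mast cell, basophil and eosinophil genes had a higher median with sg5, more so in number 1. Of 36 listed, 18 were measured. Of these, 2 rose, none fell and 16 did not pass, with 10 higher and 1 lower in both numbers. Over all protein-coding genes 0.104% rose, and 26.5% were higher and 31% lower in both numbers. The median difference was 0.31, with 0.68 in number 1 alone and 0.16 in number 2. The summed level of the list was 2465 FPKM and 4620 FPKM in EV and 4338 FPKM and 5132 FPKM with sg5. The defining genes Kit, Mcpt1 and Mcpt4 were listed at 0 in all 4 libraries. Il4, a cytokine of basophils and helper T cells, measured 6.44 FPKM and 8.06 FPKM in EV and 17.1 FPKM and 16.6 FPKM with sg5, without overlap (1.28 in number 1, pair 1.12, SE 0.12, adjusted p = 0.0143). Prss34, a protease of mast cells and basophils, measured 0.269 FPKM and 15.6 FPKM in EV and 2.29 FPKM and 70.1 FPKM with sg5. It differed more between the numbers than between the groups (1.37 in number 1, 2.10 in number 2, adjusted p = 0.0353).

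Cpa3, a carboxypeptidase of mast cells, measured 80.5 FPKM and 217 FPKM in EV and 191 FPKM and 313 FPKM with sg5 (pair 0.88, adjusted p = 0.0887). Mcpt8, a basophil protease, measured 1.01 FPKM and 1.61 FPKM in EV and 4.77 FPKM and 3.51 FPKM with sg5 (pair 1.16, adjusted p = 0.091). The eosinophil peroxidase gene Epx had the opposite sign, with 75.5 FPKM and 253 FPKM in EV and 35.1 FPKM and 61.6 FPKM with sg5 (pair -1.55, adjusted p = 0.151). In bulk RNA, more cells of a type and more RNA per cell cannot be told apart. The part of such cells in the other results was not tested.

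Other protein-coding genes with large differences in both numbers did not pass. Ifitm6, an interferon-induced membrane protein, measured 55.6 FPKM and 96.5 FPKM in EV and 21.6 FPKM and 15.6 FPKM with sg5 (-1.32 in number 1, pair -1.94, adjusted p = 0.108). Ring1, a Polycomb ubiquitin ligase, measured 7.19 FPKM and 10.9 FPKM in EV and 2.66 FPKM and 4.21 FPKM with sg5 (-1.16 in number 1, pair -1.17, adjusted p = 0.0722). For both genes the groups did not overlap. F10, which encodes coagulation factor X, measured 32.7 FPKM and 40.6 FPKM in EV and 55.3 FPKM and 135 FPKM with sg5 (0.74 in number 1, pair 1.22, adjusted p = 0.296). Nos2, the inducible nitric oxide synthase, measured 2.87 FPKM and 0.257 FPKM in EV and 7.16 FPKM and 12.2 FPKM with sg5 (1.08 in number 1, pair 2.24, adjusted p = 0.297). Fam129a measured 19.7 FPKM and 11.9 FPKM in EV and 37.5 FPKM and 22.1 FPKM with sg5 (0.90 in number 1, pair 0.87, adjusted p = 0.128). All 3 were higher with sg5 in both numbers.

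Primary granule genes and the measured granulocyte transcription factors other than Cebpe did not pass. None of the 23 measured primary granule genes passed, and their median difference was 0.03 (0.10 in number 1 alone, and -0.05 without the first sg5 library). Ctsg, the primary granule protease cathepsin G, measured 48.7 FPKM and 42.4 FPKM in EV and 119 FPKM and 70.8 FPKM with sg5 (1.28 in number 1, pair 1.00, adjusted p = 0.185). Prtn3, another protease of these granules, measured 294 FPKM and 292 FPKM in EV and 298 FPKM and 300.4 FPKM with sg5. Of 29 measured granulocyte transcription factors, Cebpe alone passed. Cebpa, which encodes C/EBP alpha of earlier progenitors, measured 32.2 FPKM and 136 FPKM in EV and 70.2 FPKM and 208 FPKM with sg5 (pair 0.86, adjusted p = 0.102). Gfi1, a repressor needed for neutrophil development, measured 8.83 FPKM and 7.31 FPKM in EV and 4.21 FPKM and 4.72 FPKM with sg5 (pair -0.73, adjusted p = 0.108). Csf2rb2, a receptor chain for interleukin 3, measured 67.2 FPKM and 29.8 FPKM in EV and 109 FPKM and 44.0 FPKM with sg5 (pair 0.62, adjusted p = 0.0886). Of 34 measured genes of the interleukin 3 and STAT5 list, 1 fell and none rose. For this list and those above, the shares over all protein-coding genes were 0.208% fallen and 0.104% risen.

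No gene passed in the mitosis, DNA replication, ribosome, oxidative phosphorylation, histone and hypoxia lists. Their members are described by how many lay on 1 side in both numbers, beside 26.5% higher and 31% lower of all protein-coding genes. Of 55 mitosis genes, 46 were higher in both numbers and none lower, with a median of 0.18 (0.17 in number 1 alone). Ndc80, a kinetochore subunit, measured 49.4 FPKM and 33.6 FPKM in EV and 60.1 FPKM and 45.4 FPKM with sg5 (pair 0.35, adjusted p = 0.264). Of 50 DNA replication genes, 36 were lower and 2 higher in both, with a median of -0.13 (-0.10 in number 1 alone). Of 66 ribosome biogenesis genes, 47 were lower and 1 higher, with a median of -0.27 that came to -0.43 in number 1 and -0.05 in number 2. Pes1, a factor of large subunit assembly, measured 49.9 FPKM and 29.6 FPKM in EV and 38.1 FPKM and 22.7 FPKM with sg5 (pair -0.38, adjusted p = 0.213). Of 78 cytosolic ribosomal protein genes, 64 were lower and none higher, with a median of -0.10 in the pair and in number 1 alone. Of 76 nuclear-encoded oxidative phosphorylation genes, 53 were lower and 2 higher, with a median of -0.10 (-0.11 in number 1 alone).

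The 28 measured replication-dependent histone genes, whose transcripts largely lack poly(A) tails, had a median of 0.52 (0.24 in number 1, 0.89 in number 2), with 22 higher and none lower in both. Hist1h1c measured 13.5 FPKM and 28.4 FPKM in EV and 20.3 FPKM and 74.2 FPKM with sg5 (pair 0.95, adjusted p = 0.151). Of 21 hypoxia-responsive genes, 16 were higher and none lower, with a median of 0.38 (0.18 in number 1, 0.51 in number 2). Ndrg1 of that list measured 54.9 FPKM and 45.3 FPKM in EV and 78.4 FPKM and 112 FPKM with sg5 (pair 0.90, adjusted p = 0.238). These list medians kept their sign under rescaling to the protein-coding sum, under quantile normalization, with the second sg5 library as sg2 and with each of the 4 libraries left out, but their size moved. The histone median was 0.17 without the second EV library and 0.89 without the first. The ribosome biogenesis median was -0.09 without the first sg5 library and -0.41 without the second. Genes of a list are not independent replicates, and the lists carry no test.

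**Figure D3:**
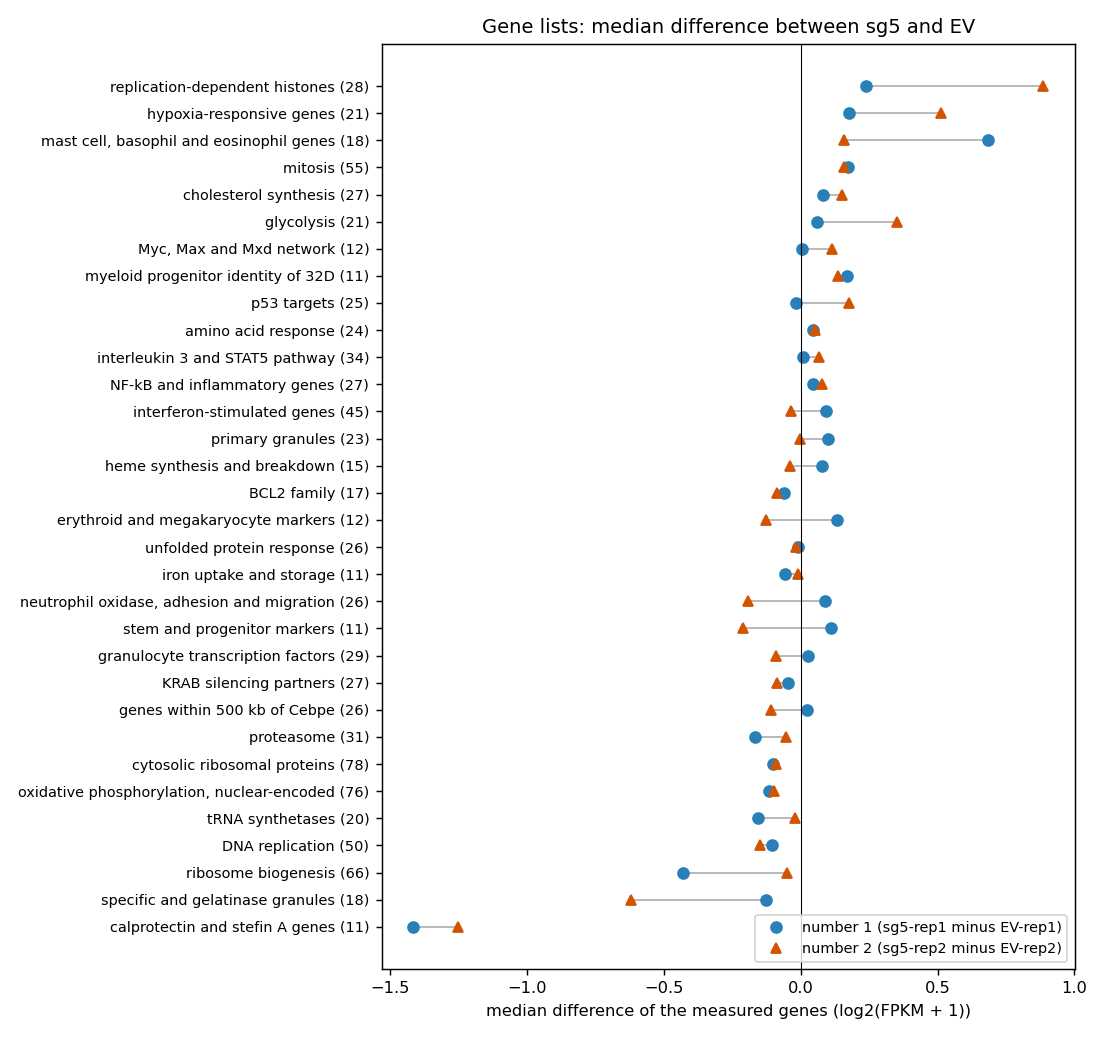
The x axis gives the median log2(FPKM + 1) difference between sg5 and EV of each list with at least 10 measured genes, the number in brackets, as a circle for number 1 and a triangle for number 2. The calprotectin and stefin A list lies lowest, at -1.41 and -1.25, and the histone list differs most between numbers among the lists above 0 in both, at 0.24 and 0.89.

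The sg5 libraries were set beside the sg2 libraries to show where the guides differed. Both comparisons share the EV libraries, so their values are given side by side and not correlated. For Cebpe the sg2 libraries measured 14.4 FPKM and 18.7 FPKM, and the direct difference of sg5 minus sg2 was 0.33 (adjusted p = 0.808). In the direct test of sg5 against sg2 over protein-coding genes, 3 genes passed (0.0284%), Ngp and Xlr4b among them. Ngp measured 1.51 FPKM and 10.6 FPKM with sg2 and was thus less low with sg5, by 1.10 (SE 0.11, adjusted p = 0.0459). Over all genes, no gene passed between the guides (0%, with 690 or 5.33% at an unadjusted p under 0.05), and the adjusted p was 0.375 for Ngp and 0.261 for Xlr4b. Tspan13 (-1.08, adjusted p = 0.0554) and Mycn (-1.0, adjusted p = 0.0759) were lower with sg5 than with sg2 without passing. Mycn measured 8.56 FPKM and 10.7 FPKM with sg2. For Nmral1 the direct difference was -0.19 (SE 0.10, adjusted p = 0.782).

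**Figure D4:**
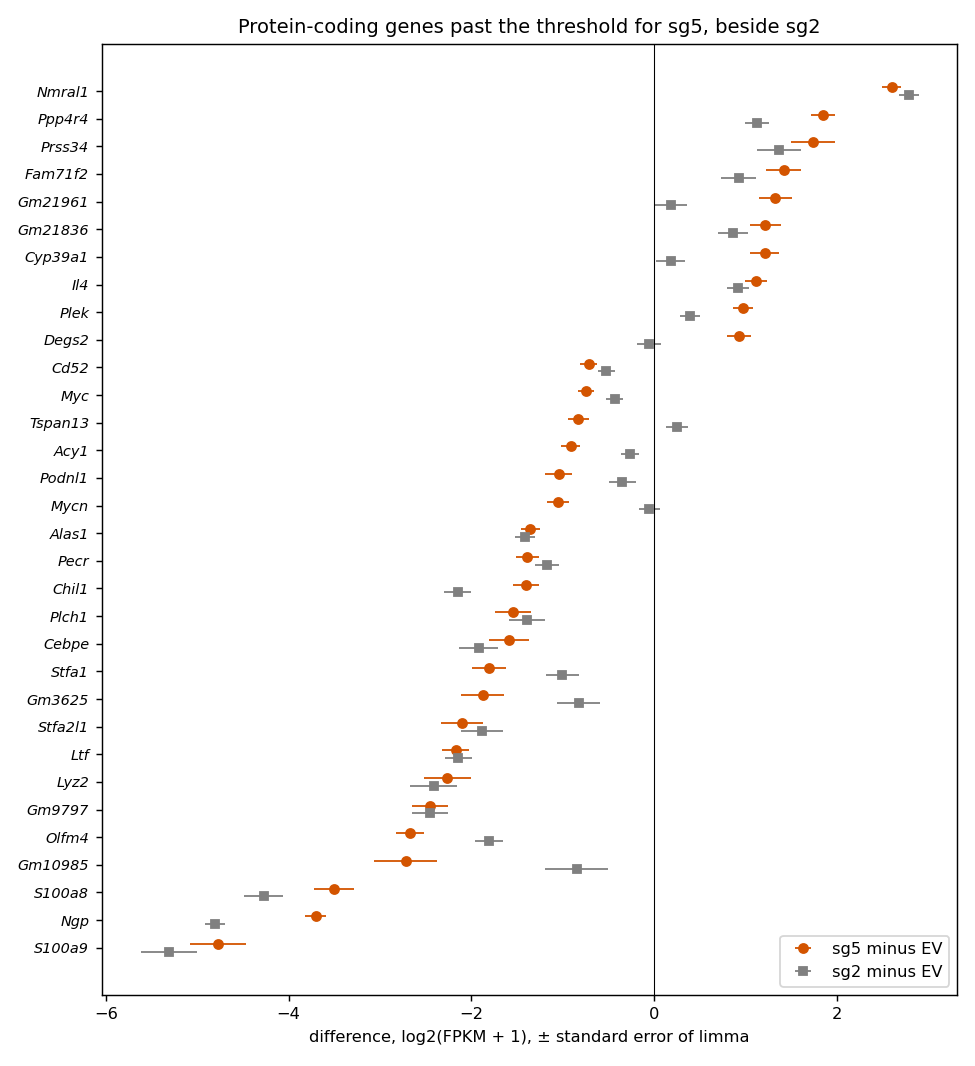
The x axis gives the log2(FPKM + 1) difference from EV of 32 of the 33 protein-coding genes that passed for sg5, as an orange circle for sg5 and a grey square for sg2, with bars of 1 standard error from limma. Nmral1 lies at 2.60 for sg5 and 2.79 for sg2, whereas Mycn lies at -1.05 and -0.05.

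With the second sg5 library counted as sg2, as its source name and genotype say, the first sg5 library stood alone, and its spread was assumed to be that of the other groups. Then 9 protein-coding genes passed limma's threshold, 3 higher and 6 lower, of which 7 were among the 33. These were S100a8, S100a9, Ltf, Alas1, Gm9797, Nmral1 and Il4. Ngp (adjusted p = 0.051), Olfm4 (adjusted p = 0.0582) and Cebpe (-1.29, adjusted p = 0.129) did not pass. In the fit over all genes none passed, with 1173 genes at an unadjusted p under 0.05.

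Genes of other biotypes, short and long noncoding RNAs among them, differed more often by 2-fold than protein-coding genes, without matching for level or length. Of 2382 such genes, 63 were 2-fold or more higher (2.64%) and 55 lower (2.31%) in both numbers, and none passed in the fit over all genes. Gm23990, annotated as a miRNA, was listed at 0 in both EV and both sg2 libraries and measured 8.45 FPKM and 11.9 FPKM with sg5 (adjusted p = 0.119). Gm24457, annotated as an snRNA, was listed at 0 in both EV libraries and measured 12.04 FPKM and 20.7 FPKM with sg5 (adjusted p = 0.119). Gm25551, annotated as an rRNA, measured 5.61 FPKM and 18.3 FPKM in EV and was listed at 0 with sg5 (adjusted p = 0.313). Gm22485 (snRNA) and n-R5s192 (rRNA) were likewise at 0 in EV, at 25.2 FPKM and 7.93 FPKM and at 13.5 FPKM and 15.9 FPKM with sg5. Gm27647 and Gm23416, annotated as miRNAs, measured 13.5 FPKM and 8.36 FPKM, and 7.49 FPKM and 5.49 FPKM, in EV and were listed at 0 with sg5. Gm22711, a snoRNA symbol carried by 2 overlapping gene IDs, measured 43.9 FPKM and 10.1 FPKM in EV and 0 with sg5 under 1 ID, and 0 in EV and 35.9 FPKM and 0 with sg5 under the other. Its reads may be split between the IDs. The longest annotated transcripts of Gm23416, Gm25551, Gm27647 and the first Gm22711 ID have 95 nt, 103 nt, 118 nt and 133 nt. These are under the 200 nt assumed for fragments, and how many fragments their FPKM rest on was not estimated.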

How the data were processed

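The authors deposited 1 table of FPKM values per library. In the submitters' processing notes stand kallisto 0.43.0, DESeq2, GRCm38 and mm10, without their roles. The annotation release is not given in the sources used here. Positions come from GENCODE M21 by gene ID (47187 matched). Genes averaging 1 FPKM or more over the 2 EV and 2 sg5 libraries entered limma 3.58.1 (R 4.3.3) on log2(FPKM + 1), in 3 groups over 6 libraries, with an intensity trend, the replicate number as a block and Benjamini-Hochberg adjustment at 0.05. The protein-coding genes were also fitted alone. The primary fit was designed over all genes. The fit over protein-coding genes is a variation on it, and its results are given first.

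The numbers pair the libraries by the data, not by the labels: deviations between numbers correlated across genes at 0.583 for EV and sg5, 0.618 for EV and sg2 and 0.596 for sg2 and sg5. The labels do not say that replicates were separate cultures, so the p-values cover only the spread between these libraries, and that may be technical.

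Members, gene lists and tests were chosen with earlier results of these data known. Named were Cebpe, called genes, the genes of largest difference in both numbers (12 protein-coding and 4 others a direction) and examples from the up to 4 genes of smallest p per list. Lcn2, S100a10, Prtn3 and Mmp9 were named after their values were seen. The fit over all genes was tested on simulated data, and that over protein-coding genes was not. Depth assumed fragments of 200 nt and covers counting error only. The values of 1 gene that passed are not reported here.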

Additional observations from a re-analysis of the deposited data

Results flagged for a closer look

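The effects of the 2 guides, each against EV, differed by a direct test of sg5 minus sg2 (limma over protein-coding genes, with the block) for 3 genes, and 2 of them are given here. Xlr4b measured 13.97 FPKM and 12.2 FPKM in EV, 33.1 FPKM and 26.7 FPKM with sg2, and 12.9 FPKM and 9.53 FPKM with sg5, so that sg5 stood below sg2 by -1.35 (SE 0.10, adjusted p = 0.013) in 2 of 2 numbers. Ngp stood above sg2 by 1.10 (adjusted p = 0.0459) in 2 of 2 numbers. In the fit over all genes the adjusted p was 0.261 for Xlr4b and 0.375 for Ngp. These tests count the library of conflicting label as sg5. Groups of 2 libraries are too small for an outlier test.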

How the results depend on the processing

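With the replicate block, 2 genes passed in the limma fit over all genes and 33 in the fit over protein-coding genes. Without the replicate block 0 passed in either, with 197 and 95 at an unadjusted p under 0.05. In the fit over all genes 0 also passed with the 4 libraries alone, without the filter, with the second sg5 library as sg2, and with any 1 of the 4 libraries left out (between 0 and 0). In the fit over protein-coding genes 14 passed with the 4 libraries alone (12 of the 33), 2 without the filter and 9 with the second sg5 library as sg2. Leaving out a library gave between 16 (without the first sg5 library) and 105 (without the first EV library, 65 higher and 40 lower, with 27 of the 33). Rescaling, quantile normalization, a pseudocount of 0.1 and a mean of at least 5 FPKM gave between 25 and 35.

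The difference of Cebpe was negative in every alternative run. It passed in the fit over protein-coding genes (-1.59) and not in that over all genes. It no longer passed without the block (-1.59), with the 4 libraries alone (-1.59, adjusted p = 0.18), without the filter (-1.59, adjusted p = 0.444) or with the second sg5 library as sg2 (-1.29). Leave-one-out values ran from -2.06 to -1.11. The alternatives of the fit over protein-coding genes were chosen after seeing the data. None of the 33 genes changed sign in any alternative. The cause of the lost calls was not tested. Of 35 list medians, 4 changed sign with the second sg5 library as sg2, between 2 and 6 with a library left out, 5 under rescaling and 3 under quantile normalization. On 1 kb of effective length, 3 fragments come to between 0.0658 and 0.0955 FPKM, more on shorter and less on longer transcripts.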
